A study of Mus musculus with 26 samples.

Results

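The immediate-early genes Fos, Fosb, Jun, Junb, Atf3, Egr1, Egr2, Egr3, Ier2 and Ier3 were examined in mesenchyme of the mouse reproductive tract. They were taken by symbol as 10 of the 41442 gene rows in each of 2 RNA-seq tables, and all 10 passed the low-count filter in both tables, among 17858 genes tested in the fetal table and 16195 in the uterine table. The fetal table holds Gli1+ cells sorted from the mesonephros, the embryonic tissue that carries the Wolffian and Müllerian ducts, in 4 groups of 3 libraries: females and males of E14.5, and females and males of E16.5, in days of embryonic age. The uterine table holds Amhr2+ and Gli1+ cells sorted from the neonatal uterus of females, labelled E19.5, in 2 groups of 3 libraries. Gli1+ cells came from Gli1-CreER; Rosa-Tomato animals, in which a tamoxifen-activated Cre driven by Gli1, a target of hedgehog signalling, turns on a red reporter. Amhr2+ cells came from Amhr2-Cre; Rosa-Tomato animals, in which Cre is driven by the gene of the receptor for anti-Müllerian hormone. The treatment note describes 2 tamoxifen injections, on E12.5 and again on E13.5, of 1 mg for each dam of either line, so all 6 groups shared it, and all sorted cells shared enzymatic dissociation with TrypLE. The comparisons asked how the fetal cells differ by sex and by age and how the uterine populations differ, and here the question was whether differences between these groups exceed the spread between replicates.

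Immediate-early genes are switched on within minutes when a cell receives a growth factor, calcium, mechanical or stress signal, with no need for new protein synthesis, and their messages decay quickly. Kinase cascades act on factors already bound at their promoters, among them serum response factor at CArG boxes and CREB at cyclic AMP response elements. Fos, Fosb, Jun, Junb and Atf3 encode subunits of the AP-1 and ATF families of leucine zipper factors, Egr1, Egr2 and Egr3 encode zinc finger factors, Ier2 encodes a small nuclear regulator, and Ier3 encodes a protein linked to cell survival. Tissue dissociation and cell sorting are known to induce these genes.

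RefSeq promoters on GRCm38.p6 (250 bases before to 50 after each start) were matched for 7 of the 10 genes, and not for Egr1, Egr3 and Ier2. The 4 stretches printed here, each 150 bases up to the listed start, were chosen as 1 stretch for each gene with a match upstream of its start. RefSeq lists several Egr2 starts, and the stretch printed adjoins the start given in the count tables. The stretch before another start holds a different CArG match, CCTTTTTTGG, beginning 72 bases upstream, which is not printed in context. Capitals mark the matches: the CArG box in Egr2, the shorter part TGACGT of the cyclic AMP element (or ACGTCA on the other strand) in Fos, Egr2 and Atf3, TATAAA in Fos, and the EGR motif GCGNGGGCG in Fosb.
Fos chr12:85473740-85473889, plus strand: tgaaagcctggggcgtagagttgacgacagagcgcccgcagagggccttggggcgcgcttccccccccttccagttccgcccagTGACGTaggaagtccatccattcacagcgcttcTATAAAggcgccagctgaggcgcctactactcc
Egr2 chr10:67537719-67537868, plus strand: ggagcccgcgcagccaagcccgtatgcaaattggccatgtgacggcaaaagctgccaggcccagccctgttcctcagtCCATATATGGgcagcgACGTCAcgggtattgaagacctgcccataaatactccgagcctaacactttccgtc
Atf3 chr1:191183334-191183483, minus strand: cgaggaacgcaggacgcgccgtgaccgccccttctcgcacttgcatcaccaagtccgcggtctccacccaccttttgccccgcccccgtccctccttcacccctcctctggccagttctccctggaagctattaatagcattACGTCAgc
Fosb chr7:19310046-19310195, minus strand: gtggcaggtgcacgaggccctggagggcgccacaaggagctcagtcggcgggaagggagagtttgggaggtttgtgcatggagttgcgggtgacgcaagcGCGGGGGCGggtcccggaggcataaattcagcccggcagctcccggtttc
Both strands of the whole promoter windows were searched, and sites more than 250 bases upstream were not. A gene counted once if any of its RefSeq promoters matched, whereas the percentages are of promoters, so the shares differ in unit. The CArG box was in 1 of the 7 matched genes (Egr2) and in 1.63% of all 32851 promoters. The full cyclic AMP element TGACGTCA was in 0 of 7 and in 1.79% of all promoters. Its part TGACGT, which the full element contains and which was added after the sequences were seen, was in 3 of 7 and in 7.51%. The AP-1 motif TGANTCA was in 0 of 7 and in 7.81%, and the EGR motif was in 1 of 7 and in 5.55%. TATAAA was in Fos and Junb, 2 of 7, and in 13.6% of all promoters. These matches describe letters in the windows and do not show binding.

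In the authors' single list of 71040 ATAC-seq peaks, which marks accessible chromatin over all fetal samples without a sample column, each of the 4 printed stretches overlapped 1 peak. Around the gene starts given in the count tables, 9 of the 10 genes had a peak within 1000 bases, against 79% of the tested fetal genes. A peak lay over the start itself in 7, for which the share over all genes was not computed. Atf3 was the gene without a peak within 1000 bases. Its listed start lies at base 191218039 of chromosome 1, upstream of the RefSeq start used for the printed stretch, and 5 peaks lay within the gene.

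The fetal libraries held 23382983 to 64602477 counts and the uterine ones 28709191 to 37541045, so that 3 counts, used as the floor of detection, stood for at most 0.128 and 0.104 CPM (counts scaled by library total). The lowest count of any of the 10 genes in any library was 26, for Egr3 in uterine Gli1+ replicate 2. Pdgfra, a mesenchymal receptor gene, stood at 611 CPM or more in every fetal library and at 519 CPM or more in every uterine library. Gli1 stood at 48.5 to 246 CPM in the fetal libraries. It stood at 7.53 to 21.2 CPM in the uterine ones, and in the uterus Amhr2 stood at 7.25 to 15.8 CPM in Amhr2+ and 3.35 to 5.23 CPM in Gli1+ libraries. The labels do not say whether replicates came from separate animals, so p-values measure the spread between these libraries, which may be technical. These are bulk libraries, in which fewer responding cells and less RNA per cell cannot be told apart.

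A pair of libraries stood apart. E16.5 male replicate 1 had the lowest level of all 10 immediate-early genes among the 3 libraries of its group, and uterine Gli1+ replicate 2 had the lowest level of all 10 in its group. Over all tested genes these also had the widest deviations from the group means in their tables, with an SD of 0.30 against 0.20 to 0.26 (log2 units) in the other fetal libraries and 0.28 against 0.15 to 0.25 in the other uterine libraries. The 10 genes together took 0.394% of counts in E16.5 male replicate 1 and 0.918% to 1.84% in the other fetal libraries. They took 0.104% in uterine Gli1+ replicate 2 and 0.395% to 1.17% in the other uterine libraries. Calls of the 10 genes that change without these libraries, and the correlations, are also given without them.

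Compared per kilobase of exon, Egr1 had the highest and Fos the second highest mean in all 6 groups. Their library values overlapped in E16.5 females, E16.5 males and uterine Gli1+ cells, where the Gli1+ means were 635 for Egr1 and 633 for Fos, and did not overlap in the other 3 groups. In E14.5 females Egr1 averaged 918 ± 45.1 CPM per kb (SD, n = 3) and Fos 705 ± 43.2, followed by Ier2 at 352 ± 8.19, Jun at 249 ± 21.1, Fosb at 225 ± 38.2 and Junb at 206 ± 6.37. Egr3 (58.0 ± 2.93), Egr2 (50.5 ± 1.38), Ier3 (28.5 ± 1.12) and Atf3 (15.6 ± 1.99) formed the low end. Of the 9 pairs of neighbours in this order, 2 overlapped in their library values, Jun with Fosb and Fosb with Junb. The overlap covered 5 of 9 neighbour pairs in E14.5 males, 8 in E16.5 females, 9 in their male counterparts, 3 in uterine Amhr2+ and 9 in uterine Gli1+ cells. The lowest rank went to Atf3 at E14.5, to Ier3 at E16.5 and to Egr3 in the uterus.

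**Figure D1:**
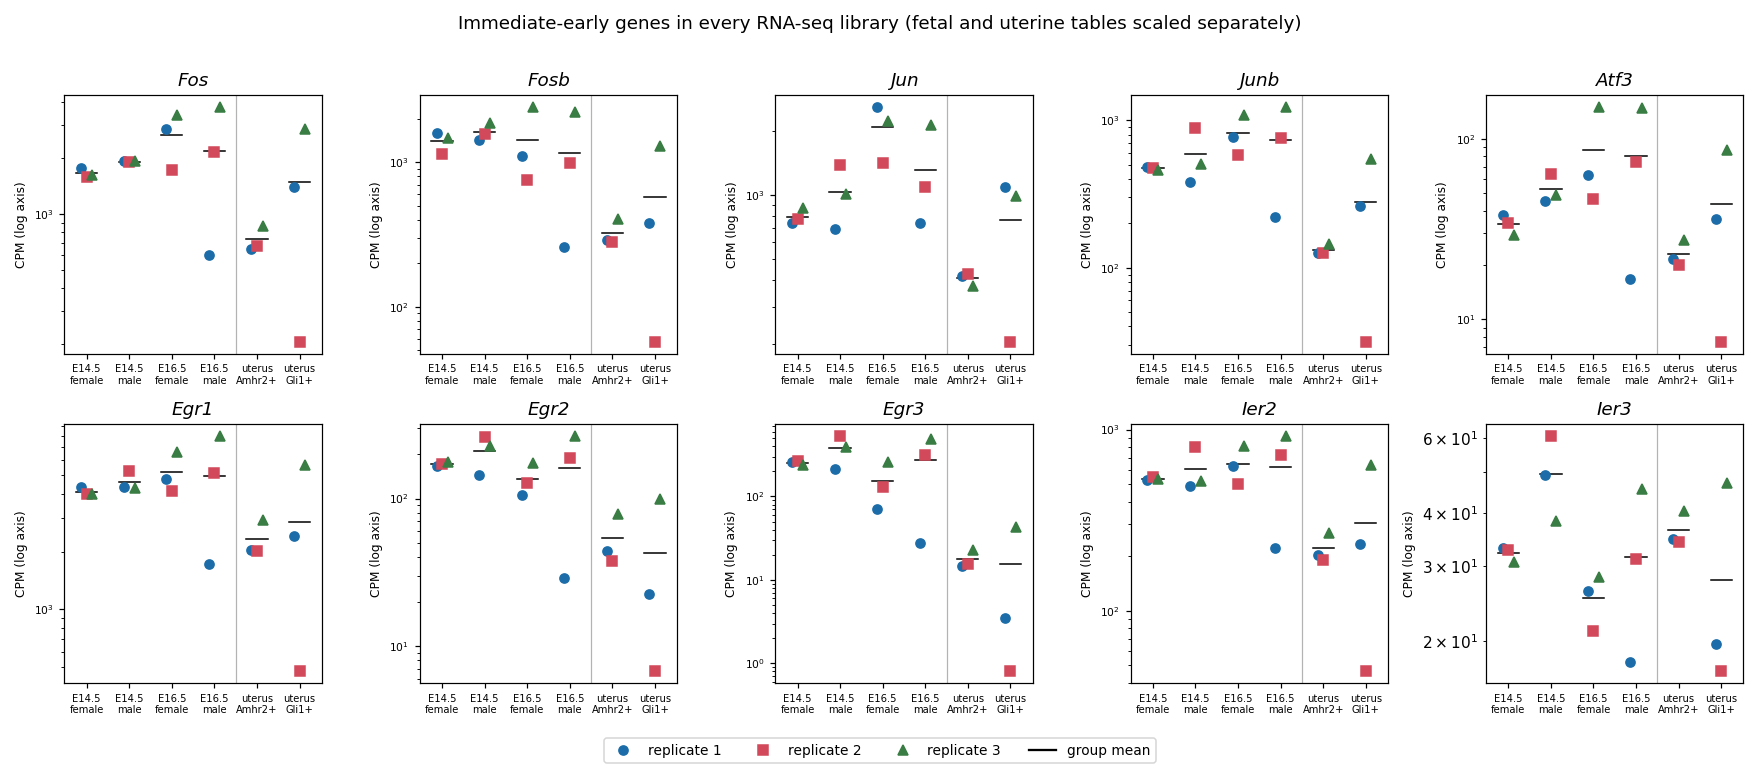
CPM on a log axis for each immediate-early gene (1 panel each) in every library, with groups along the x axis, markers for replicates 1 to 3 and a line at the group mean. E14.5 female replicates lie close together, whereas E16.5 male replicate 1 and uterine Gli1+ replicate 2 lie lowest of their groups in every panel.

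The AP-1 genes showed how the groups differed in spread. Fos, which encodes a core AP-1 subunit, measured 1774, 1580 and 1623 CPM in E14.5 female replicates 1 to 3 and 1918, 1899 and 1932 CPM in E14.5 males. It measured 2878, 1725 and 3423 CPM in females of E16.5, whose male counterparts measured 602, 2151 and 3780 CPM. The E14.5 groups did not overlap, whereas the E16.5 male libraries spanned a 6.28-fold range that contained every other fetal value. In the uterus Fos measured 652, 673 and 868 CPM in Amhr2+ and 1407, 206 and 2853 CPM in Gli1+ libraries, where Gli1+ replicate 2 lay below and replicates 1 and 3 above all Amhr2+ values. Fosb, a relative of Fos, measured 1598, 1139 and 1480 CPM in E14.5 females, 1420, 1562 and 1857 in E14.5 males, 1107, 749 and 2417 in E16.5 females and 260, 993 and 2238 in the males of E16.5. All 4 fetal groups of Fosb overlapped, and its uterine Gli1+ libraries (379, 57.3 and 1290 CPM) enclosed the Amhr2+ ones (290, 281 and 407).

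Jun, the main dimer partner of Fos, behaved differently. It measured 742, 769 and 870 CPM in E14.5 females and 2591, 1408 and 2223 CPM in E16.5 females, with no overlap. In males it measured 695, 1389 and 1007 CPM at E14.5 and 737, 1086 and 2120 CPM at E16.5, which overlapped. In the uterus Jun measured 419, 429 and 377 CPM in Amhr2+ and 1091, 206 and 994 CPM in Gli1+ libraries, so that only Gli1+ replicate 2 lay below the Amhr2+ values. Junb, an AP-1 subunit that can oppose Jun, measured 485, 478 and 457 CPM in E14.5 females, 383, 880 and 509 in E14.5 males, 775, 581 and 1093 in E16.5 females and 222, 755 and 1236 in the males of E16.5. Its E14.5 and E16.5 females did not overlap, E14.5 males enclosed E14.5 females, and E16.5 males enclosed every other fetal group. Uterine Junb was 126, 126 and 146 CPM in Amhr2+ against 262, 31.5 and 546 CPM in Gli1+ libraries. Atf3, a stress-induced factor that dimerises with Jun, measured 37.8, 34.0 and 29.3 CPM in E14.5 females, 45.1, 64.0 and 48.5 in E14.5 males, 63.0, 46.1 and 150 in E16.5 females and 16.6, 74.7 and 149 in the males of E16.5. E14.5 females lay below E14.5 males and below E16.5 females in every library. Atf3 overlaps the gene Gm24748 in the table, so its reads are uncertain to that extent.

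The Egr genes, whose products bind GC-rich sites, held both the most abundant and the most variable messages. Egr1 stayed between 3995 and 5277 CPM over the 6 E14.5 libraries and between 4166 and 6631 CPM in E16.5 females, while E16.5 males measured 1720, 5136 and 8012 CPM. Uterine Egr1 was 2045, 2023 and 2917 CPM in Amhr2+ and 2406, 476 and 5660 CPM in Gli1+ libraries. Egr3 moved most. It measured 259, 266 and 241 CPM in E14.5 females, 214, 529 and 394 in E14.5 males, 70.6, 130 and 257 in E16.5 females and 28.1, 317 and 487 in the males of E16.5. In the uterus it was at 14.6, 15.7 and 22.9 CPM in Amhr2+ and at 3.49, 0.801 and 42.5 CPM in Gli1+ libraries, a 52.8-fold range between Gli1+ replicates 2 and 3. The counts behind those Gli1+ values were 117, 26 and 1410. Egr2 spanned a 9.22-fold range in E16.5 males (28.7, 187 and 265 CPM) and a 14.7-fold range in uterine Gli1+ cells (22.5, 6.75 and 99.1 CPM), against 1.06-fold in E14.5 females.

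The Ier genes differed from each other in spread, with Ier3 the least variable of the 10 in both tables. Ier2 ranged 4.16-fold in E16.5 males (221, 723 and 920 CPM) and 13.7-fold in uterine Gli1+ cells (235, 46.3 and 635 CPM), and 1.05-fold in E14.5 females. Ier3 measured 33.1, 32.7 and 30.7 CPM in E14.5 females, 49.1, 60.5 and 38.3 in E14.5 males, 26.2, 21.1 and 28.3 in E16.5 females and 17.9, 31.2 and 45.5 in the males of E16.5. E14.5 females were thus below E14.5 males and above E16.5 females in every library. In the uterus Ier3 was at 34.8, 34.1 and 40.5 CPM in Amhr2+ and at 19.7, 17.0 and 46.9 CPM in Gli1+ libraries, where replicate 3 alone lay above the Amhr2+ values.

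Spread between replicates was then set against differences between groups on the log2 CPM scale (prior count 2), as a description without a test. The pooled replicate SD of the 10 genes had a median of 0.74 in the fetal table, against 0.15 over all tested genes, and of 1.38 in the uterine table, against 0.14. Egr3 had the highest replicate SD in both tables (1.25 and 2.03) and Ier3 the lowest (0.39 and 0.57). In the fetal libraries 9 of 10 genes were in the top 10% of all genes by replicate SD, Ier3 being the exception, and in the uterus 10 of 10 were. The replicate SD exceeded the SD of the 4 group means in 8 of 10 genes, against 37.5% of all tested fetal genes, the exceptions being Jun (0.52 against 0.57) and Ier3 (0.39 against 0.41). It exceeded the SD of the 2 group means in 10 of 10 genes in the uterus, against 48.2% of all tested genes. The counts moved with single libraries: without E16.5 male replicate 1 the fetal counts were 3 in the top 10% and 3 above the SD of group means, and without uterine Gli1+ replicate 2 the uterine counts were 9 and 5.

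Group by group, the spread was far from even. The median SD over 3 replicates of the 10 genes was 0.07 in E14.5 females, below the 0.09 of all tested genes. It was 0.36 in E14.5 males (all genes 0.14), 0.46 in E16.5 females (0.12), while it was 1.32 in the males of E16.5 (0.16). It was 0.25 in uterine Amhr2+ (0.11) and 1.92 in uterine Gli1+ cells (0.14). The lowest member of the E16.5 male group, Ier3 at 0.68, and of the uterine Gli1+ group, Ier3 at 0.79, still lay above the 90th percentile of all genes in those groups (0.51 and 0.47). Each of these SD values rests on 3 libraries.

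**Figure D2:**
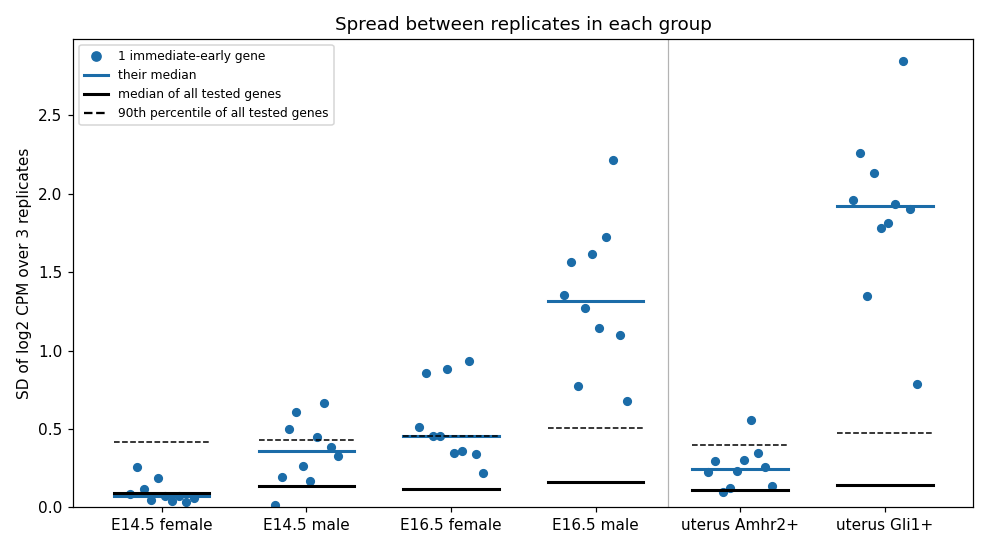
SD of log2 CPM over the 3 replicates of each group, on a linear axis from 0; points are the 10 immediate-early genes, with their median (blue line) and the median and 90th percentile of all tested genes (black solid and dashed lines). All 10 points lie above the dashed line in E16.5 males and in uterine Gli1+ cells, and all 10 lie below it in E14.5 females.

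The genes deviated together in the libraries farthest from their group means. The mean deviation of the 10 genes from their group means was -1.48, 0.37 and 1.11 (log2 units) in E16.5 male replicates 1 to 3, and all 10 were lowest in replicate 1 and highest in replicate 3. In uterine Gli1+ cells it was 0.24, -1.94 and 1.70, with all 10 lowest in replicate 2 and 9 highest in replicate 3, Jun being highest in replicate 1. E16.5 females gave -0.12, -0.40 and 0.52, and E14.5 males gave -0.30, 0.33 and -0.03. Amhr2+ libraries gave -0.12, -0.15 and 0.27, and E14.5 females kept within 0.05 of 0. Replicate 3 therefore had the highest mean in 4 of the 6 groups, and the labels tie no replicate number to a day, litter or batch. Over the 45 pairs of the 10 genes, the Pearson correlation of deviations had a median of 0.92 across the 12 fetal libraries, from 0.66 to 0.98, and of 0.96 across the 6 uterine libraries, from 0.55 to 1.00. Without E16.5 male replicates 1 and 3 the fetal median was 0.72 over 10 libraries, from 0.19 to 0.95. Without Gli1+ replicates 2 and 3 the uterine median was 0.65 over 4 libraries, from -0.93 to 1.00. In all coefficients given without 2 libraries, here and below, deviations were still taken from group means that included the libraries left out. The value of the library remaining in that group therefore still depends on them, and these coefficients are not free of their influence. The libraries share group means and scaling, so the coefficients are descriptions and carry no p-value.

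**Figure D3:**
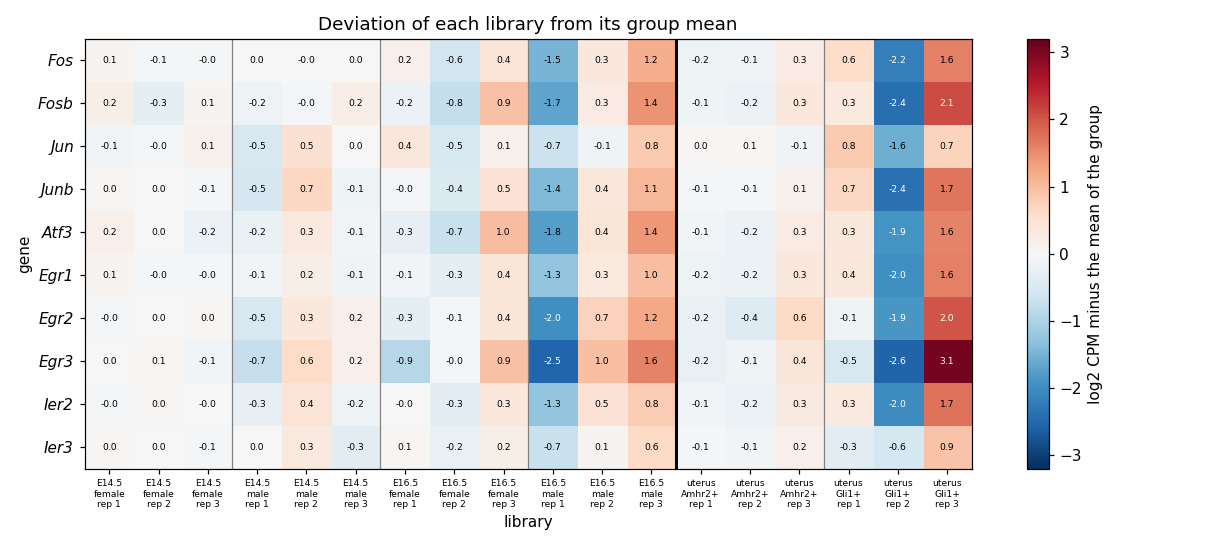
Log2 CPM minus the group mean for the 10 genes (rows) in the 18 libraries (columns), with the value printed in each cell and colour from blue (below the group mean) to red (above); the thick line separates the fetal and uterine tables. E16.5 male replicate 1 and uterine Gli1+ replicate 2 are blue in all 10 rows and replicate 3 of both groups is red in all 10.

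Genes outside the set whose deviations were most like the mean of the 10 genes were ranked among genes of at least 10 CPM, 9986 in the fetal and 10065 in the uterine table. The 10 highest in the fetal table were Lrig3 (r = 0.99), Nr4a1, Btg2, Zfp36, Actg1, Mcl1, Brca1, Cyr61, Cbx8 and Ccdc186 (r = 0.98). Of these Nr4a1, Btg2, Zfp36, Mcl1 and Cyr61 are on a list of other primary response genes. Lrig3 had a small amplitude beside this likeness, with a replicate SD of 0.20 against 0.77 for Nr4a1, an orphan nuclear receptor gene, and 0.79 for Btg2, an antiproliferative gene. Without the 2 libraries farthest out, E16.5 male replicates 1 and 3, the coefficients of the 10 were 0.90 to 0.98. In the uterine table the 10 highest were Derl1, Cetn2, Adipor2, Arc, Pigx, Btg2, Dynll1, Srrt, Ube2k and Mrpl13, all at r = 1.00 over 6 libraries and at 0.85 to 1.00 over the 4 libraries left without Gli1+ replicates 2 and 3. Arc and Btg2 had replicate SDs of 1.92 and 1.52 and the other 8 had 0.03 to 0.33. In total 223 fetal and 682 uterine genes had a coefficient over 0.9, and 64 and 415 had one under -0.9.

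Among 45 other primary response genes, the median coefficient with the mean of the 10 genes was 0.85 in the fetal libraries, and 0.72 without E16.5 male replicates 1 and 3. In the uterus, where 44 were tested, it was 0.91, and 0.48 without Gli1+ replicates 2 and 3. Their median replicate SD was 0.50 and 0.64, and 24 and 30 of them were in the top 10%. Their mean deviation ran from -0.88 to 0.69 across E16.5 male libraries and from -0.94 to 0.92 across uterine Gli1+ libraries. For 16 upstream factors (serum response factor, its cofactors, ternary complex factors, CREB, and kinases) the range was narrower, from -0.15 to 0.10 and from -0.05 to 0.07. Of 10 heat shock genes, the mean deviation in replicates 1 to 3 was -0.24, -0.26 and 0.50 in E16.5 males. It was 0.61, -0.36 and -0.25 in uterine Gli1+ libraries, and 0.16, 0.37 and -0.53 in E16.5 females. In each of these groups the order of replicates by mean deviation differed from that of the immediate-early mean, as it did in E14.5 females and Amhr2+ cells. In E14.5 males (-0.43, 0.26 and 0.17) it was the same. By summed level, the heat shock genes of E16.5 males (4161, 5090 and 6841 CPM) also followed the order of the immediate-early mean. The median coefficient of the heat shock genes with that mean was 0.80 in the fetal and 0.55 in the uterine libraries. Hspa1a, an inducible chaperone gene that shares reads with Hspa1b, stood at 19.2 to 293 CPM in E16.5 females and 2.94 to 4.49 CPM in E14.5 females.

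Most markers of other cell types were low beside the 6 mesenchyme genes, whose summed level was 33466 CPM or more in fetal and 26024 CPM or more in uterine libraries. In E16.5 males the summed levels over the 3 libraries were 82.1 to 91.8 CPM for 6 endothelial genes, 20.6 to 22.3 for 7 epithelial genes and 15.0 to 19.7 for 8 erythroid genes. In uterine Gli1+ cells they were 37.2 to 45.2 CPM for endothelial, 17.9 to 29.0 for epithelial and 7.84 to 8.66 for erythroid genes. The summed level of 6 immune genes was 12.9, 45.0 and 47.0 CPM in E16.5 male replicates 1 to 3 and 29.7, 44.2 and 76.1 CPM in the female replicates of that age. It was 51.3, 44.3 and 84.1 CPM in Amhr2+ and 22.1, 30.4 and 84.3 CPM in uterine Gli1+ replicates. Replicate 3 was thus highest in these 4 groups, as for the mean of the immediate-early genes. The same library was lowest in both for E16.5 males (replicate 1) and Amhr2+ cells (replicate 2). In E16.5 females and in Gli1+ cells the lowest immune sum was in replicate 1, and the lowest immediate-early mean in replicate 2. At E14.5 the immune sum was 67.8, 58.8 and 61.2 CPM in females, in the order of the immediate-early mean. In E14.5 males it was 58.4, 50.9 and 42.5 CPM, highest in replicate 1, where the immediate-early mean was lowest. The mean deviation of the 6 immune genes in replicate 3 was 0.68 and 0.36 (log2 units) in E16.5 females and males, and -0.18 in both Amhr2+ and Gli1+ cells. It was 0.78 in Gli1+ replicate 2. The median coefficient of the immune genes with the mean of the immediate-early genes was 0.15 in the fetal and -0.79 in the uterine libraries. The summed erythroid level was 979 CPM in E14.5 female replicate 3, against 26.9 and 7.44 CPM in replicates 1 and 2, while the mean deviation of the immediate-early genes in that library was -0.02 and 0 of the 10 passed for sex at E14.5 with or without it. The summed level of 4 germ cell genes was 0.505 to 2.52 CPM in fetal libraries. It was 0.474 to 0.943 CPM in Amhr2+ and 5.27 to 6.53 CPM in uterine Gli1+ libraries. Of these germ cell genes, Dppa3 was at 0 counts in all libraries of both tables. Mitochondrial genes took 1.28% to 1.89% of counts. The part of these cell types in the spread of the immediate-early genes was not tested.

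Between the sexes at E14.5, 0 of the 10 genes had an adjusted p under 0.05 in edgeR's quasi-likelihood test, against 6.28% of all genes tested, and 0 had an unadjusted p under 0.05. All 10 estimates (female minus male) were below 0, with a median of -0.31 against -0.01 over all genes. In leave-one-out fits the estimates of Ier2 and Junb reached 0.088 and 0.085. The 10 genes deviated together between libraries, so their shared sign does not count as 10 separate results. Fos, Atf3 and Ier3 did not overlap between the sexes, 3 of 10, against 27.2% of all genes. The log2 fold change was -0.64 for Atf3 (adjusted p 0.711), -0.61 for Ier3 (adjusted p 0.330) and -0.21 for Fos (adjusted p 0.893) by edgeR. When only the 6 libraries compared entered the edgeR fit, Atf3 (adjusted p 0.0202) and Ier3 (adjusted p 0.0322) passed. For these genes the call thus depended on which libraries entered the fit, which also changes the filter and the scaling. With limma voom weighted per group on all fetal libraries, they did not pass (adjusted p 0.468 and 0.0759).

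At E16.5, 0 of the 10 genes passed between the sexes, against 27.3% of all genes, 0 had an unadjusted p under 0.05, and none was free of overlap, against 38.3% of all genes. The estimates had a median of 0.09 and ran from -0.86 for Egr3 to 0.66 for Jun (SE 0.86 and 0.41). The standard errors of the 10 genes ran from 0.30 to 0.86, against a median of 0.12 over all genes. Ier3 (log2 fold change -0.33) passed edgeR's test without E16.5 male replicate 1, at -0.61 with an adjusted p of 0.0477. Egr1 had an estimate of 0.07 with a 95% interval from -0.97 to 1.11. The interval therefore included changes of either sign, and the missed threshold does not show that the sexes were alike.

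Between E14.5 and E16.5 in females, 1 of the 10 genes passed, against 39.6% of all genes, and it was also the only one with an unadjusted p under 0.05. Jun rose from 793 ± 67.4 to 2074 ± 605 CPM (SD, n = 3), a log2 fold change of 1.39 (SE 0.42, edgeR adjusted p 0.0302). The call was lost without E14.5 female replicate 1, 2 or 3, of which replicate 3 had the high erythroid sum (adjusted p 0.0929, 0.0860 and 0.0672 by edgeR) and without E16.5 female replicate 1 or 3 (adjusted p 0.0911 and 0.0709). The fold change stayed between 1.2 and 1.6 in all leave-one-out fits. Groups did not overlap for Jun, Junb, Atf3 and Ier3, 4 of 10, against 56.6% of all genes. The log2 fold change was 1.36 for Atf3 (adjusted p 0.174), 0.79 for Junb (adjusted p 0.311), 0.69 for Fos (adjusted p 0.354) and -0.35 for Ier3 (adjusted p 0.40). None of these passed edgeR's test in the fit of all fetal libraries. When only the libraries compared entered the fit, Ier3 (-0.35, edgeR adjusted p 0.0121) passed beside Jun. The heat shock genes Hspa1a and Hspa1b rose in the same comparison, by 5.33 and 5.20 on the log2 scale (edgeR adjusted p 0.00589 and 0.00551), and their part in the change of Jun was not tested.

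In males, 0 of the 10 genes passed between the ages, against 23.3% of all genes, 0 had an unadjusted p under 0.05, and none was free of overlap, against 34.9%. Ier3 came closest, with a log2 fold change of -0.64 (edgeR adjusted p 0.167), and passed without E16.5 male replicate 3 (-0.99, adjusted p 0.0231). The interaction of sex and age passed for 0 of 10 genes, against 10% of all genes, and was 1.04 for Jun (SE 0.59, edgeR adjusted p 0.344), so the age difference of Jun in females was not shown to differ from that in males. The test of any difference among the 4 fetal groups passed for 0 of 10, against 51.4% of all genes, with adjusted p of 0.0784 for Jun and 0.0933 for Ier3, and Jun alone had an unadjusted p under 0.05. Without E16.5 male replicate 1 both genes passed edgeR's test (adjusted p 0.0421 for Jun and 0.00872 for Ier3), and both passed without replicate 3 as well.

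In the uterus, 0 of the 10 genes passed between Amhr2+ and Gli1+ cells, against 23.9% of all genes, 0 had an unadjusted p under 0.05, and none was free of overlap, against 44.4%. Estimates (Amhr2+ minus Gli1+) had a median of -0.64 against 0.00 over all genes, with standard errors of 0.41 to 1.37 against a median of 0.12. The log2 fold change was -1.08 for Junb, -1.03 for Fos, -0.90 for Jun, -0.29 for Egr1, 0.18 for Egr3 and 0.39 for Ier3, with adjusted p from 0.384 to 0.941 by edgeR. Which genes passed depended on the Gli1+ libraries left out. Without Gli1+ replicate 2, 3 of 10 passed, beside 3410 of all genes, against 3866 (23.9%) in the fit of all uterine libraries. These 3 were lower in Amhr2+ cells: Jun by -1.35 (edgeR adjusted p 0.000106), Junb by -1.61 (adjusted p 0.0308) and Fos by -1.55 (adjusted p 0.0341). Without Gli1+ replicate 3, 2 of 10 passed, beside 3521 of all genes. Both were higher in Amhr2+ cells: Egr3 by 3.03 (edgeR adjusted p 0.0138) and Ier3 by 0.99 (adjusted p 0.00157). With both left out, the single Gli1+ replicate 1 was assumed to vary like the Amhr2+ libraries. The estimates of these 5 genes were then -1.42 for Jun, -0.99 for Junb, -0.95 for Fos, 2.34 for Egr3 and 0.89 for Ier3. Of these 5, Jun, Junb, Fos and Ier3 kept their sign in all leave-one-out fits, and Egr3 ran from -0.38 to 3.03. For 6 of the 10 genes the estimate took the other sign in at least 1 alternative, as for Egr1, at -0.79 without replicate 2 and 0.69 without replicate 3.

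**Figure D4:**
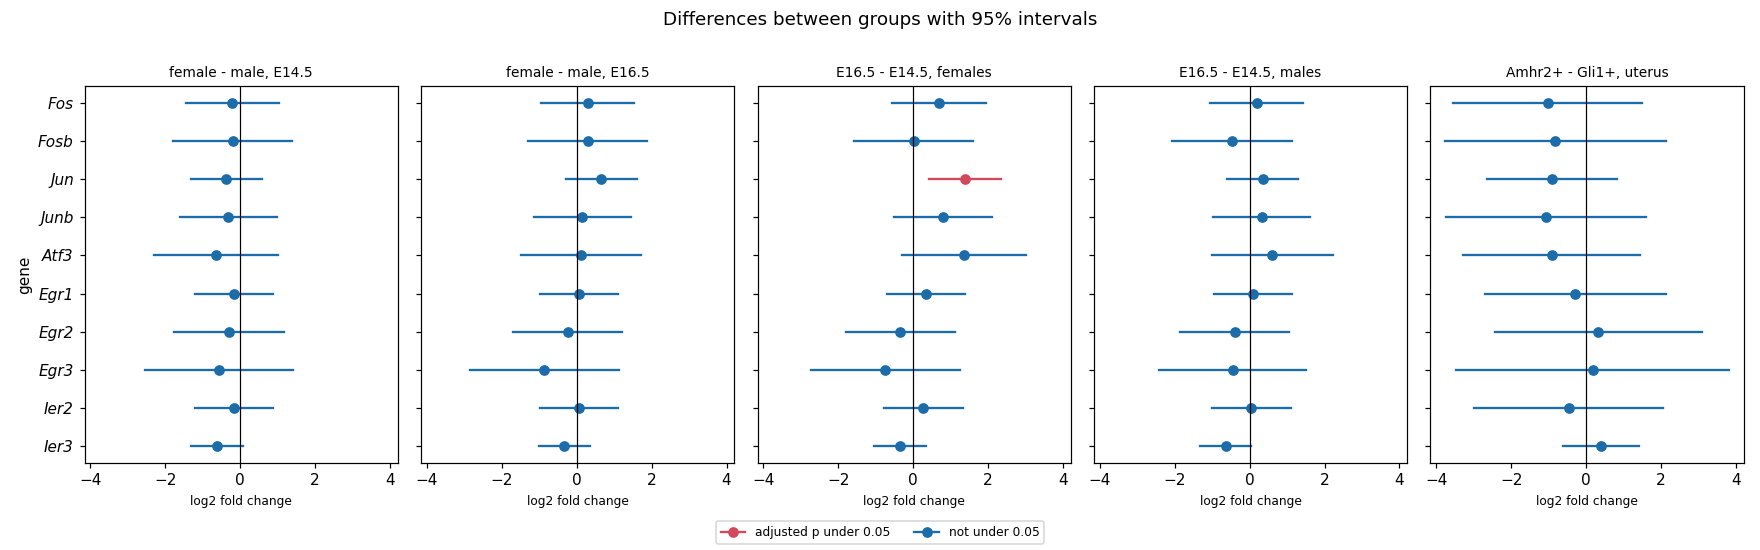
Log2 fold change of each gene (rows) in the 5 comparisons between groups (panels), with 95% intervals from edgeR's quasi-likelihood fit; red marks an adjusted p under 0.05 over all genes tested. Jun between the ages in females is the only red point, and the intervals are widest in the uterus.

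The other primary response genes gave calls in every pairwise comparison and in none of the 45 for the interaction. At E16.5 between the sexes 1 was higher and 6 lower in females, among them Nr4a2 (log2 fold change 1.06) and Ptgs2 (-1.26), the cyclooxygenase gene. Between the ages in females 6 rose and 3 fell, with Cebpd at 1.86, Nr4a2 at 1.90 and Dusp6, a phosphatase of the ERK pathway, at -1.69. In males 2 rose and 1 fell, at E14.5 between the sexes 2 were lower in females, and in the uterus 2 of 44 were higher and 4 lower in Amhr2+ cells, with Cebpd at -2.05 and Sgk1 at -0.51. These counts were 4.44%, 15.6%, 20%, 6.67% and 13.6% of the list for sex at E14.5, sex at E16.5, age in females, age in males and the uterus, against 6.28%, 27.3%, 39.6%, 23.3% and 23.9% of all genes. The median log2 fold changes of the list were -0.22, 0.10, 0.37, 0.06 and -0.38 in that order, against -0.01, 0.01, 0.00, -0.01 and 0.00 over all genes. Of the 16 upstream factors, 2, 4, 7, 3 and 2 passed in the same order, with Mapk3, which encodes an ERK kinase, rising between the ages in females (0.79) and in males (0.63). Mkl2, a cofactor of serum response factor, was lower in females at E16.5 (-0.81).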

How the data were processed

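The immediate-early genes and the gene lists were chosen with earlier results of these data known. The 2 RNA-seq files deposited by the authors hold raw read counts per gene on mm10. Per the labels' protocols, the fetal libraries came from 250 ng RNA and a kit that does not mark strand, and the uterine ones from a stranded kit, so the tables were fitted separately. The submitters' processing notes name STAR 2.5, Subread 1.5.0-p1 with featureCounts, Bowtie 1.2 and MACS2 2.1.1, without roles. The use of strand in counting is not given in the sources used here. The deposited ATAC-seq file is 1 peak list.

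Counts were tested with edgeR 4.0.16 in R 4.3.3 (quasi-likelihood F test, robust, TMM scaling, filterByExpr on groups), with 4 group means over 12 fetal libraries and 2 over 6 uterine ones. The Benjamini-Hochberg adjustment ran over all genes tested, with a threshold of 0.05. The standard error is the log2 fold change divided by the root of F. CPM, other than that of the floor of detection, uses TMM-scaled library sizes, and log2 CPM a prior count of 2. Exon lengths are unions from GENCODE vM21. The scripts were tested on simulated data.

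All 10 members were named. For each table the 10 genes most correlated with them, and genes of the lists of other primary response, upstream and heat shock genes past the threshold (at most 4 per direction), could also be named; of the latter, examples are given. Leave-one-out fits, other scaling, no filter, DESeq2 1.42.0, fits of only the libraries compared and a replicate block were tried. At E16.5, same-numbered female and male libraries deviated together (r = 0.28, 0.11 and 0.40), above a limit of 0.1 in each pair. Differently numbered pairs of female and male libraries of that age ran from -0.34 to 0.108. Each same-numbered pair thus lay above every differently numbered one. The same held at E14.5, at 0.07, 0.05 and 0.05 against -0.04 to -0.01, although below the limit. In the uterus same-numbered pairs gave 0.002, 0.22 and 0.24 and the others -0.24 to 0.13. Pairing by number therefore remains possible but is not established, and no label links a number to a litter. The main tests used no replicate block, which was fitted only as an alternative. With the block, calls over all genes rose from 1121 to 1581 for sex at E14.5 and from 4883 to 5901 for sex at E16.5. They fell from 7068 to 6255 for age in females and from 4168 to 3463 for age in males. Within-group library pairs differed beyond counting noise (mean chi-square per gene 3.60 or more), so none was merged. The 95% intervals come from edgeR's fit over replicates, and floors cover counting error only.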

Additional observations from a re-analysis of the deposited data

How the results depend on the processing

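The 10 genes kept their count of calls for the interaction in all fits run. For sex at E14.5, restricting the fit to the libraries compared gave 2 called genes in place of 0, and leave-one-out fits gave 0. For sex at E16.5 leave-one-out fits gave 0 to 1, for age in males 0 to 1, and for age in females 0 to 1 in place of 1. In that comparison the fit restricted to the libraries compared, limma voom with quality weights per group, and the fit without E16.5 male replicates 1 and 3 each gave 2. For any difference among the fetal groups, edgeR without robust estimation, DESeq2 and limma voom with group weights each gave 2 in place of 0, and leave-one-out fits gave 0 to 2. The weighted fits, the fits without both extreme libraries of a group, the correlations without 2 libraries and the TGACGT search were chosen after seeing the data. In the uterus leave-one-out fits gave 0 to 3. Leave-one-out counts with a replicate SD above the SD of group means were 3 to 10 (fetal) and 5 to 10 (uterus), and those in the top 10% 3 to 9 (fetal) and 9 to 10 (uterus).

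Leave-one-out log2 fold changes of Egr1 ran from -0.34 to 0.59 for sex at E16.5 and from -0.79 to 0.69 in the uterus, those of Ier3 from -0.61 to 0.031 for sex at E16.5, and those of Egr3 from -0.38 to 3.03 in the uterus. Uterine Egr1 took the other sign with a replicate block (0.25) and with group weights (0.30). Of 60 estimates over 6 comparisons, 31 took the other sign in at least 1 alternative, and in none of those fits was that estimate called. The replicate block changed no call of the 10 genes, and Jun between the ages in females had an adjusted p of 0.0256 by edgeR with it. Prior counts of 0.5 and 5 left the spread counts within 1.5 times.

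Over all genes, calls for sex at E14.5 fell from 1121 to 578, 660 and 653 when female replicate 1, 2 or 3 of that age was left out, and to 686 and 553 when male replicate 2 or 3 was, and group weights gave 1709. The interaction went from 1790 to 2687 without E16.5 male replicate 1. Age in males went from 4168 to 2414 without E16.5 male replicates 1 and 3. The uterine count went from 3866 to 1949 without Amhr2+ replicate 1, 2521 without Gli1+ replicate 1 and 1507 without Gli1+ replicates 2 and 3. The cause of these changes was not tested. With 3 libraries per group the design cannot separate a shift of 1 library from the spread of its group. The lowest count of any of the 10 genes was 26.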
